A study of Mus musculus with 3 samples.

Results

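The 9 genes described here were Acp5, Ctsk, Atp6v0d2, Spp1, Gpnmb, Trem2, Dcstamp, Cd9 and Apoe, of 27998 genes in the deposited matrices. They were chosen by name, from their raw UMIs (counted molecules) by library and cell class and from how often they were found in the same macrophages, so the levels below are descriptions of values that led to the choice. The data were 3 single-cell RNA-seq libraries of dorsal skin from male C57BL/6 mice aged 7 to 9 weeks, with no genetic change named. The wounds were full-thickness biopsies of 1.0 by 0.5 cm, one on either side, made while the hair follicles were in telogen. One library held non-lesional skin, one the wound bed at day 2 and one the wound bed at day 7, all digested with collagenase D and DNase1. The labels do not say how many mice went into a library. With 1 library per group there was no replicate, so no test between groups was possible, and every interval below is a 95% interval that covers counting error only.

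Acp5 (tartrate-resistant acid phosphatase), Ctsk (cathepsin K, a collagen-degrading cysteine protease), Atp6v0d2 (the d2 subunit of the proton-pumping V-ATPase) and Dcstamp (a transmembrane protein needed for the fusion of osteoclast precursors) are best known from osteoclasts, the multinucleated bone-resorbing cells of the myeloid lineage. Trem2 is a lipid-sensing receptor that signals through the adaptor Tyrobp, Apoe carries lipid out of cells, Gpnmb is a transmembrane glycoprotein of lysosomes and melanosomes, Spp1 (osteopontin) is a secreted integrin and CD44 ligand, and Cd9 is a tetraspanin. These 5 are often used together to mark lipid-associated macrophages, which take up and store lipid in damaged or fatty tissue. Several of the 9 have other well-known sources in skin: fibroblasts make Ctsk, melanocytes make Gpnmb, and keratinocytes make Apoe and Cd9.

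The identifiers and positions, in GENCODE M21 on GRCm38, were as follows. Acp5 (ENSMUSG00000001348) lies on the minus strand of chromosome 9 from 22126727 to 22135711. Ctsk (ENSMUSG00000028111) lies on the plus strand of chromosome 3 from 95499256 to 95509362. Atp6v0d2 (ENSMUSG00000028238) lies on the minus strand of chromosome 4 from 19876841 to 19922605. Spp1 (ENSMUSG00000029304) lies on the plus strand of chromosome 5 from 104435118 to 104441050. Gpnmb (ENSMUSG00000029816) and Cd9 (ENSMUSG00000030342) are both on chromosome 6, the first on the plus strand from 49036546 to 49070929 and the second on the minus strand from 125460266 to 125494791. Trem2 (ENSMUSG00000023992) lies on the plus strand of chromosome 17 from 48346401 to 48354147, and Dcstamp (ENSMUSG00000022303) on the plus strand of chromosome 15 from 39745930 to 39760938. Apoe (ENSMUSG00000002985) lies on the minus strand of chromosome 7 from 19696109 to 19699188.

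Promoter sequences from RefSeq on GRCm38.p6 were matched by symbol for 7 of the 9 genes. Shown, chosen after the values were seen, are 2 genes that were found in the same day 7 cells, Acp5 and Ctsk, and a second such pair, Gpnmb and Trem2, each from 250 bases before to 20 after an annotated start, 5′ to 3′ on the gene's strand. Capitals mark searched motifs: the M-box core CATGTG, which reads CACATG where it lies on the opposite strand, the AP-1 motif TGANTCA, and the PU.1 core GAGGAA, which reads TTCCTC where it lies on the opposite strand. The positions are chr9:22130579-22130848 (the third of 3 Acp5 starts), chr3:95498960-95499229 (Ctsk), chr6:49036268-49036537 (Gpnmb) and chr17:48346151-48346420 (Trem2).
Acp5: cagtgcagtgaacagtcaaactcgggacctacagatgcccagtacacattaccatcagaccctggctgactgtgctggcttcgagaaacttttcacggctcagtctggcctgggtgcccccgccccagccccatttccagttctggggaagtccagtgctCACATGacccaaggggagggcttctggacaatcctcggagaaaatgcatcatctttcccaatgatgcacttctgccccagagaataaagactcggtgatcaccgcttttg
Ctsk: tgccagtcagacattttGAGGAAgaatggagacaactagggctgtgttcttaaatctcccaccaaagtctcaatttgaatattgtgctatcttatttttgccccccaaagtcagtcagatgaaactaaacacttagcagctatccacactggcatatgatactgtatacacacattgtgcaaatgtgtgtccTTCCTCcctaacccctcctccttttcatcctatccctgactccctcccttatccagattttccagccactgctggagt
Gpnmb: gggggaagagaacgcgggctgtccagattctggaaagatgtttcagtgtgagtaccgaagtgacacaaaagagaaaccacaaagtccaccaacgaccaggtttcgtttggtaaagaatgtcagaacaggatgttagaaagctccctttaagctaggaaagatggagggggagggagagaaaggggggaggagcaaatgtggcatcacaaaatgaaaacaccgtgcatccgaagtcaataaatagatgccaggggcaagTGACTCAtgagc
Trem2: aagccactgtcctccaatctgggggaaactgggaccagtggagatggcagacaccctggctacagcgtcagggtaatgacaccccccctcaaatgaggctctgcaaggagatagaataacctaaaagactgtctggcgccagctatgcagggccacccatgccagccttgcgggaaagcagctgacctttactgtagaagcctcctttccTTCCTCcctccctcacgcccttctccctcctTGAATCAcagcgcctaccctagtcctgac
On both strands of the full 300-base windows, the E-box CACGTG was in none of the 7 genes' promoters (7.17% of all 32544 promoters hold it). The M-box core was in 2 of 7, Acp5 and Cd9 (14.2% of all promoters), and the AP-1 motif in 2 of 7, Gpnmb and Trem2 (7.79% of all). The PU.1 core was in 4 of 7, Ctsk, Spp1, Trem2 and Apoe (28.1% of all). A gene counted if any of its starts held the motif (3 starts for Acp5 and Apoe, 2 for Spp1), whereas the shares are per promoter, so counts and shares are not alike. The third Acp5 start, shown above, was the only one of its 3 with a searched motif. These 3' counts do not show which start was used, and a match is a description of the sequence only.

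After filtering, 9390 non-lesional, 7362 day 2 and 4773 day 7 cells were kept, with median depths of 9413.5, 7527 and 10978 UMIs per cell, and pairs of libraries shared 14 to 24 cell barcodes. The day 7 library kept 65.2% of its barcodes, against 86.5 and 84.6%, and lost 1632 of 7317 to the limit of 10% mitochondrial UMIs, against 368 of 10857 and 372 of 8707. With the limit at 20%, the number of members called higher or lower was the same in each comparison of macrophage-like cells below, and the part of the loss in other values was not tested. Cells were clustered without the 9 genes among the variable genes, and a cluster was named only from marker lists. Monocyte or macrophage-like cells, called macrophage-like below, numbered 56 (0.596% of kept cells), 359 (4.88%) and 322 (6.75%), with median depths of 4861, 1845 and 5737.5 UMIs. All 12 macrophage markers were found in the class in each library, at summed levels of 25190, 3470 and 8408 CPM (a class's UMIs in a library scaled to a total of 1000000). Of the 56 non-lesional cells, 45 formed a cluster led by Retnla and C1qa, and 11 lay in the cluster that held all the wound ones, so the wound and non-lesional values rest largely on different clusters. RNA of other cells was present in the class: fibroblast markers, 7 or 8 of 8 found, summed to 1434, 2731 and 3534 CPM, and erythroid markers, 4 or 5 of 5 found, to 48.5, 2690 and 279 CPM. Neutrophil markers, 2 of 8 found in non-lesional skin and 7 of 8 in the wounds, summed to 37.3, 790 and 171 CPM (Cxcr2 at 0 on day 2, Ly6g at 0 on day 7), and all 5 adipocyte markers were at 0.

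In macrophage-like cells, 8 of the 9 genes were at least 2-fold higher in the day 7 library than in the non-lesional one, and Apoe was lower. Of all measured genes, 15.9% were higher and 12.4% lower. Between day 2 and day 7 the osteoclast-type genes Ctsk, Atp6v0d2 and Acp5 and the lipid-associated genes Gpnmb, Trem2 and Apoe were higher on day 7, whereas Spp1 and Cd9 were already high on day 2. The Acp5 difference, 2.52 on the log2 scale, rested on 33 cells and was 0.67 at a finer clustering that set them apart and -0.14 with the class set per cell. These 33 cells kept no class name at the finer clustering. They had Ctsk at 3642 CPM and Atp6v0d2 at 541 CPM, against 143 and 66.3 CPM in the other 289 day 7 cells. The following values give the level in CPM in the non-lesional, day 2 and day 7 library, in that order.

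Acp5 was at 7.47, 233 and 1365 CPM (2, 193 and 3613 UMIs). The wound libraries were both above the non-lesional one, with ratios of 31.3 (8.54 to 260) on day 2 and 183 (50.6 to 1510) on day 7, and the 2 non-lesional UMIs came from 1 cell. The day 7 level was 5.85 times the day 2 level (5.06 to 6.79), but 34.9% of the day 7 UMIs came from 5 cells, and on day 2 the top 5 cells held 42.5%.

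Ctsk was at 26.1, 25.4 and 949 CPM (7, 21 and 2512 UMIs). Non-lesional and day 2 cells did not differ beyond counting error (ratio 0.972, 0.398 to 2.71; the direction turns under another scaling) and Ctsk was 37.4-fold higher on day 7 than on day 2 (24.4 to 60.5). Because fibroblasts make much Ctsk, its level was set beside that of fibroblast collagens and markers in the same droplets. In non-lesional macrophage-like cells Ctsk stood at 1.39% of its fibroblast-like level, near the 0.739 to 1.23% of 4 fibroblast-defining genes, and on day 2 at 21.9% beside 4.94 to 11.7%. On day 7 it stood at 150% of its fibroblast-like level, beside 2.67 to 5.36% for the same 4 genes. A cluster of 33 cells, described below, held 88.4% of these UMIs. In the other 289 cells Ctsk stood at 143 CPM, 22.7% of the fibroblast-like level and 5.64 times the day 2 level (3.62 to 9.25). Erythroid-like cells had Ctsk at 512 CPM on day 7 and 93.4 CPM on day 2, both above these 289 cells and the day 2 macrophage-like cells respectively. The source of these UMIs was not tested.

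Atp6v0d2 was at 3.73, 8.47 and 176 CPM, from 1, 7 and 465 UMIs, so it was barely counted before day 7. Its day 7 level was 20.8-fold above day 2 (9.99 to 51.9) and 47.1-fold above non-lesional skin (8.40 to 1862). On day 7 it was at 541 CPM in the cluster of 33 cells and 66.3 CPM in the other 289. Dcstamp, which acts in fusion, was the least counted, with 0, 13 and 92 UMIs (0, 15.7 and 34.8 CPM). Set against a floor of 3 UMIs in the non-lesional class, its day 2 and day 7 levels were 1.40 and 3.10 times that floor. The non-lesional (0 to 13.8 CPM) and day 2 (8.37 to 26.9 CPM) intervals overlapped, so no difference was bounded on day 2. The day 7 interval (28.0 to 42.6 CPM) lay above the non-lesional one. That day 7 level rested in large part on the 33 cells: Dcstamp was at 93.5 CPM in them and 17.2 CPM in the other 289, nearer the non-lesional upper bound. The day 7 to day 2 ratio was 2.21 (1.23 to 4.31), short of a 2-fold change once the pseudocount of 5 CPM was added (log2 difference 0.94).

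Cd9, which also takes part in cell fusion, was at 44.8, 722 and 453 CPM (12, 597 and 1199 UMIs). Both wound libraries were above the non-lesional one, by 16.1-fold (9.16 to 31.4) and 10.1-fold (5.77 to 19.6), and day 7 was below day 2 with a ratio of 0.627 (0.568 to 0.693).

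Trem2 was at 78.4, 73.8 and 362 CPM (21, 61 and 957 UMIs). Non-lesional and day 2 cells did not differ beyond counting error (ratio 0.941, 0.565 to 1.63, with the direction turning under another scaling), and day 7 was 4.90-fold above day 2 (3.78 to 6.46). Gpnmb was at 3.73, 145 and 511 CPM (1, 120 and 1353 UMIs), with a day 7 to day 2 ratio of 3.52 (2.92 to 4.28). Its non-lesional level rests on 1 UMI, and the ratios to it were 38.9 (6.85 to 1548) on day 2 and 137 (24.5 to 5411) on day 7.

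Apoe had a different course, at 21109, 862 and 4151 CPM (5654, 713 and 10989 UMIs). It was 24.5-fold lower on day 2 than in non-lesional skin (22.6 to 26.5) and 5.08-fold lower on day 7 (4.92 to 5.25), and between the wound libraries it was 4.81-fold higher on day 7 (4.46 to 5.20). Spp1 was at 149, 3782 and 5781 CPM (40, 3127 and 15302 UMIs), and all 40 non-lesional UMIs lay in 1 cell. Its ratios to non-lesional skin were 25.3 (18.6 to 35.5) and 38.7 (28.4 to 54.2), and the wound libraries differed by a ratio of only 1.53 (1.47 to 1.59). That cell lay outside the 45-cell non-lesional cluster, in which Spp1 had 0 UMIs.

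**Figure D1:**
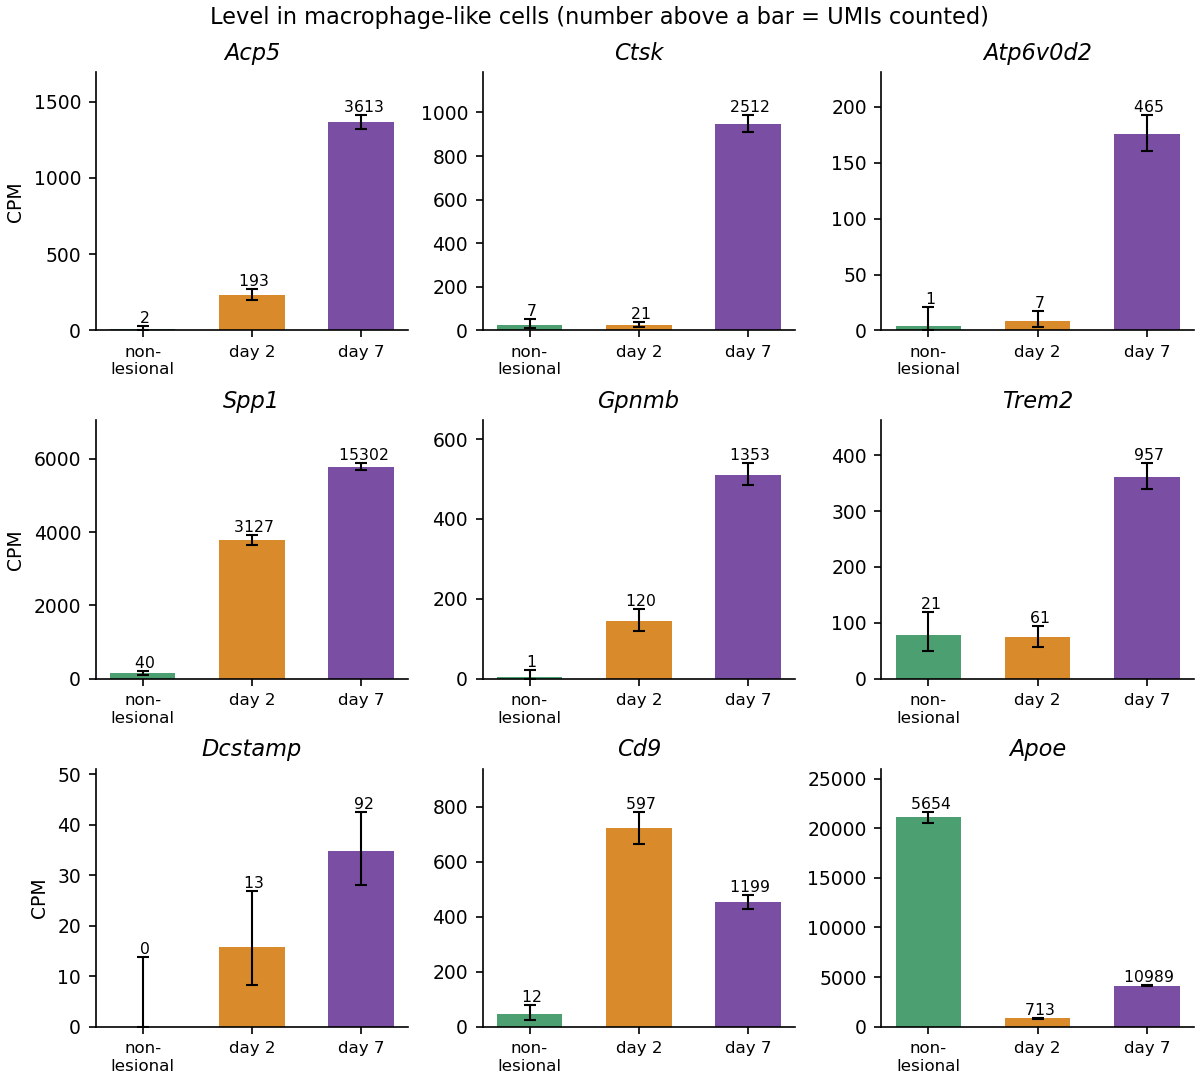
Levels of the 9 genes in macrophage-like cells (CPM, linear axes from 0, each gene on its own scale) in the non-lesional, day 2 and day 7 library. Bars give 1 library each with its 95% counting interval, and the number above a bar its UMIs. Acp5, Ctsk and Atp6v0d2 were highest on day 7, Cd9 on day 2 and Apoe in the non-lesional library.

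A gene was called higher or lower at a 2-fold change in CPM + 5, among genes with at least 10 UMIs in the pair. From non-lesional skin to day 2, 5 of the 8 measured genes were higher (14.5% of all 7503 measured genes were) and 1 was lower (20.8% of all). From non-lesional skin to day 7, 8 of 9 were higher (15.9% of 9844) and 1 was lower (12.4%). From day 2 to day 7, 6 of 9 were higher (10% of 10059) and none was lower (3.40%). The members were chosen with these contrasts in view, so nothing is read from these shares, and the comparisons share libraries. The median log2 difference of the measured members was 2.96, 4.37 and 2.22 in the same order. Over all measured genes the medians were -0.18, 0.06 and 0.20. With Dcstamp set against the floor of 3 UMIs, the first median of the members was 2.18.

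Levels summed over a class do not say how many cells carried a gene, so each cell was thinned to 1000 UMIs, which kept 53, 274 and 299 macrophage-like cells and left out 3, 85 and 23 shallower ones. On day 7, a UMI of Spp1 was in 220 of 299 cells (73.6%, 68.2 to 78.5), of Apoe in 164 (54.8%, 49.0 to 60.6) and of Cd9 in 94 (31.4%, 26.2 to 37.0). Gpnmb was in 77 cells (25.8%, 20.9 to 31.1), Acp5 and Trem2 each in 66 (22.1%, 17.5 to 27.2), Ctsk in 53 (17.7%, 13.6 to 22.5), Atp6v0d2 in 19 (6.35%, 3.87 to 9.75) and Dcstamp in 4 (1.34%). On day 2 the shares were 69.3% for Spp1, 48.5% for Cd9, 35.8% for Apoe, 14.6% for Acp5, 9.85% for Gpnmb and 6.93% for Trem2, and Ctsk, Atp6v0d2 and Dcstamp were in 5 cells or fewer. The share of cells with Acp5 differed less between days 2 and 7 than its summed level, since the thinned shares were 14.6% and 22.1% and their intervals overlapped (10.6 to 19.3 and 17.5 to 27.2). In fibroblast-like cells, which should lack Trem2, the thinned day 7 share of Trem2 was 0.172%, at a median depth of 26431 UMIs. Unthinned, 44.4% of day 7 macrophage-like cells had Acp5, 57.1% Trem2 and 20.5% Atp6v0d2.

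When the same cells were clustered more finely (resolution 2 in place of 1), 33 of the 322 day 7 macrophage-like cells (10.2%) fell into a separate cluster. It held 23.0% of the class's day 7 UMIs and most of the class's UMIs of the osteoclast-type genes. This cluster kept no class name, because its macrophage marker score was under the set minimum. It also took 8 non-lesional cells, which had no Acp5 UMI, and 1 day 2 cell. Since the cells were grouped by their expression, the values here are descriptions, and genes outside the fixed lists were picked after seeing them.

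Acp5 was at 4679 CPM in the 33 cells and 373 in the other 289, a ratio of 12.5 (11.6 to 13.6), so the 33 cells held 78.9% of the class's Acp5 UMIs and 52.8% of all Acp5 UMIs in the day 7 library. Ctsk was at 3642 against 143 CPM (25.4-fold, 22.5 to 28.8), Atp6v0d2 at 541 against 66.3 (8.17-fold, 6.67 to 10.1) and Dcstamp at 93.5 against 17.2 (5.44-fold, 3.51 to 8.55). The 4 osteoclast-type genes were thus all higher in the small cluster. Of the day 7 library's UMIs it held 58.0% of Atp6v0d2, 33.3% of Dcstamp and 4.71% of Ctsk. The lipid-associated genes lay the other way. Spp1 was at 840 CPM in the 33 cells and 7258 in the 289 (8.64-fold lower), Apoe at 602 and 5213 (8.66-fold lower) and Gpnmb at 110 and 631 (5.74-fold lower). Trem2 (251 and 395 CPM) and Cd9 (323 and 492 CPM) differed less.

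The fixed list of other osteoclast genes showed the same division. Nfatc1, the transcription factor that drives osteoclast differentiation, was at 1066 against 48.6 CPM, and Mmp9, a gelatinase, at 1022 against 80.5 CPM. Ocstamp, a fusion protein related to Dcstamp, was at 149 against 5.89 CPM, and Itgb3, the beta chain of the vitronectin receptor, at 68.9 against 2.94 CPM. Tnfrsf11a, which encodes the receptor RANK, was at 107 against 33.9 CPM, and Src, a kinase of the osteoclast's sealing zone, at 194 against 36.8 CPM. Oscar, a collagen receptor, had 13 UMIs in the 33 cells and none in the 289, which put it at 14.5 times a floor of 3 UMIs. Tcirg1 (354 and 263 CPM), Clcn7 (93.5 and 57.9) and Ostm1 (47.6 and 41.2), which serve acid secretion, differed by less than 2-fold, and Calcr and Siglec15 had no UMI in either. Among genes picked afterwards, Slc9b2, a sodium-proton exchanger, was at 371 against 2.94 CPM.

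General macrophage genes were not evenly spread. C1qa was at 9.84 CPM in the 33 cells and 655 in the 289, Adgre1 (F4/80) at 1.64 and 121, Mrc1 at 1.64 and 209, Lyz2 at 331 and 5775, and Arg1 at 50.9 and 1370. Csf1r, the M-CSF receptor, was higher in the small cluster (576 and 203 CPM), and Cd68 was at 435 and 541 CPM. The 33 cells were deep, with a median of 18403 UMIs and 3970 genes (range 781 to 39179 UMIs), against 5516 UMIs in the 289 (510 to 39050). Doublets remaining after removal were not tested for; Col1a1, a fibroblast collagen, was at 1542 and 1311 CPM, and the neutrophil gene S100a8 at 1.64 and 71.7 CPM. After thinning to 1000 UMIs, which sets the depths equal, Acp5 was in 25 of 32 cells of the small cluster (78.1%) and 41 of 267 of the large one (15.4%), Ctsk in 24 of 32 and 29 of 267, Atp6v0d2 in 37.5% and 2.62%, Gpnmb in 6.25% and 28.1%, and Apoe in 28.1% and 58.1%.

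**Figure D2:**
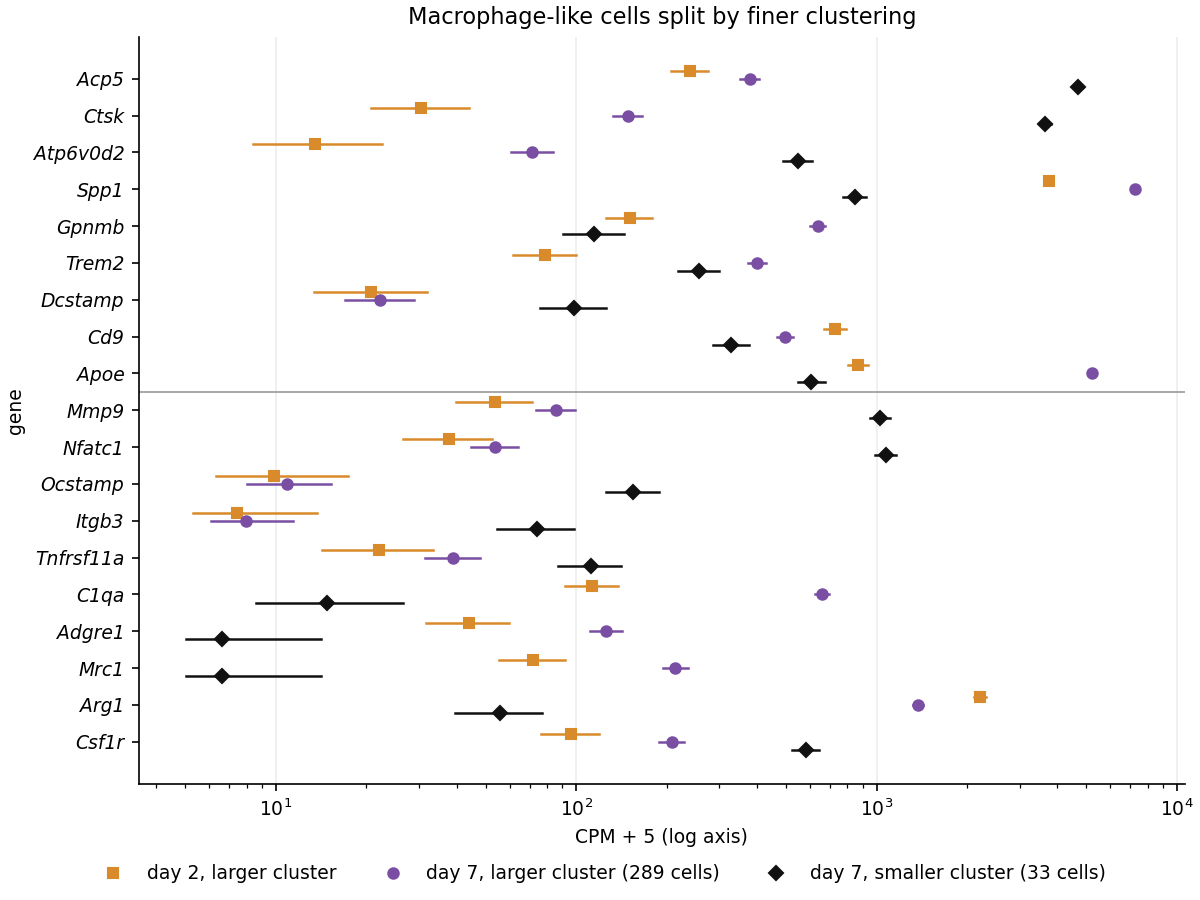
Levels of the 9 genes and of other osteoclast and macrophage genes (CPM + 5, log axis) in the 33 day 7 cells of the smaller cluster, the 289 of the larger one and the day 2 cells of the larger one, with 95% counting intervals as lines. Acp5, Ctsk, Atp6v0d2 and Dcstamp were higher in the smaller cluster, Spp1, Gpnmb and Apoe in the larger one.

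Without the 33 cells, the day 7 to day 2 difference of Acp5 was 0.67 on the log2 scale and no longer reached 2-fold (2.52 with them), and that of Dcstamp was 0.10. Ctsk (2.29, from 4.97) and Atp6v0d2 (2.41, from 3.75) still passed 2-fold in the remaining 289 cells, as did Gpnmb (2.09), Trem2 (2.35) and Apoe (2.59). When each cell was given a class from its own marker score, which kept 131 day 7 and 70 day 2 cells, Acp5 did not differ in the same direction (-0.14).

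Co-detection was counted in the 299 thinned day 7 cells, as the number of cells with a UMI of both genes over the number that independence would give. Of the 28 pairs for which independence gave at least 3 cells, 4 reached 1.5 times that number. Acp5 and Ctsk were found together in 27 cells against 11.7 (2.31 times), and Ctsk was in 40.9% of the cells with Acp5 (29.0 to 53.7) and 11.2% of those without (7.42 to 15.9). Acp5 and Atp6v0d2 were together in 13 cells against 4.19 (3.10 times), and Ctsk and Atp6v0d2 in 11 against 3.37 (3.27 times). With cells thinned to 2000 UMIs the ratio for Acp5 and Ctsk was 1.37, and with unthinned cells 1.33. All 4 cells with Dcstamp had Acp5. The remaining pair was Gpnmb and Trem2, together in 28 cells against 17.0 (1.65 times), with Trem2 and Apoe next among the lipid-associated genes (48 cells against 36.2, 1.33 times).

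Between the osteoclast-type and the other genes, with the small cluster included, the 15 pairs with at least 3 cells expected lay between 0.670 and 1.38 times the independent number. Acp5 stood at 0.968 with Spp1, 0.967 with Apoe, 0.961 with Trem2, 0.941 with Gpnmb and 0.868 with Cd9. Ctsk was found with Cd9 1.38 times and with Apoe 0.826 times as often. Atp6v0d2 was below the independent number with Spp1 (0.787), Trem2 (0.715), Apoe (0.672) and Cd9 (0.670), from 3 to 11 cells each. In the 267 thinned cells outside the small cluster, Acp5 and Ctsk were together in 4 cells against 4.45, so that pair reached 1.5 times only with the small cluster included. There 23 pairs had at least 3 cells expected, which the pairs of Atp6v0d2 with Acp5 and Ctsk did not, and 2 reached 1.5 times: Gpnmb and Trem2 (1.58) and Ctsk and Cd9 (16 cells against 9.23, 1.73 times). In these 267 cells Ctsk also stood at 1.47 with Gpnmb, 1.32 with Trem2, 1.26 with Spp1 and 1.01 with Apoe. Acp5 stood at 1.24 with Trem2, 1.22 with Gpnmb, 1.18 with Apoe, 1.02 with Spp1 and 0.766 with Cd9. Atp6v0d2 stood at 0.748 with Spp1 and 0.738 with Apoe. On day 2, with 274 thinned cells, 1 of 14 pairs reached 1.5 times, Trem2 and Apoe in 12 cells against 6.80 (1.77 times).

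**Figure D3:**
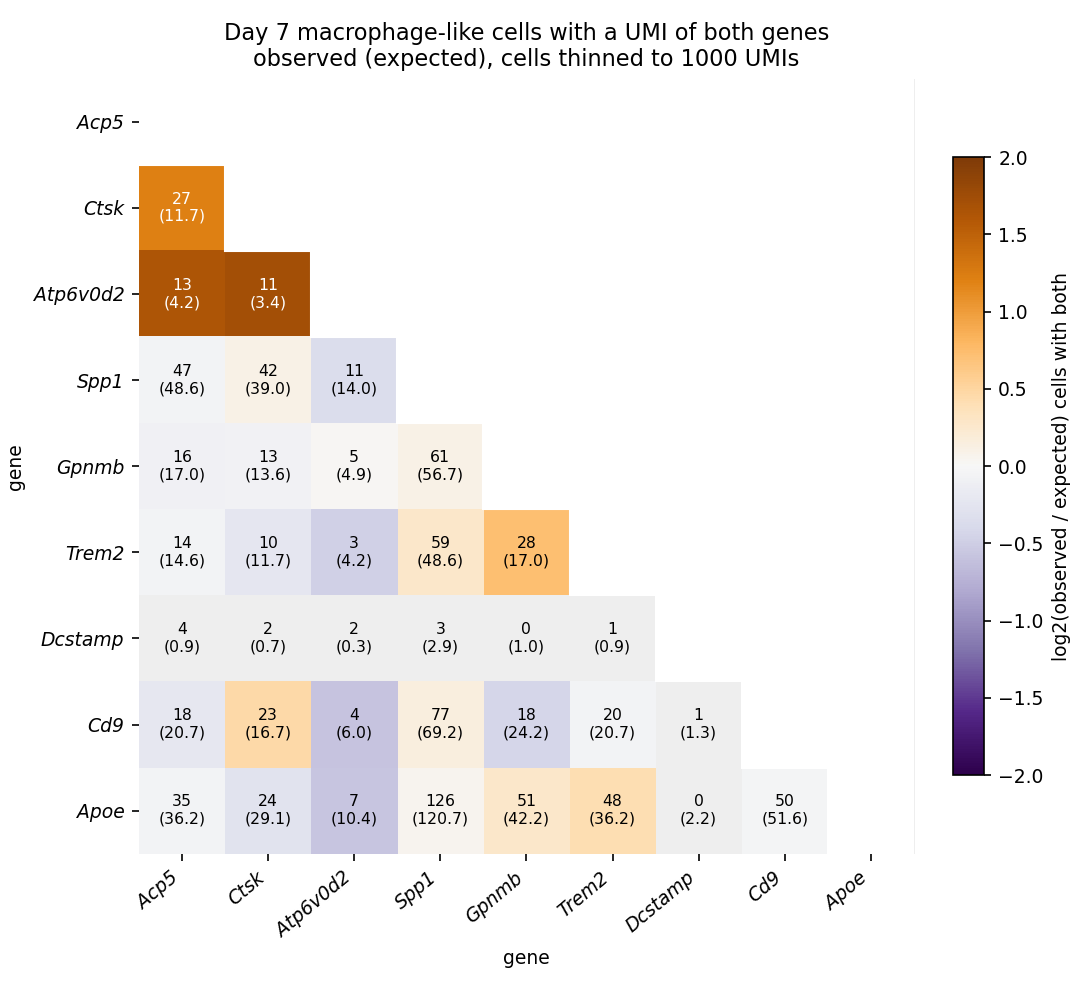
Pairs of the 9 genes in 299 day 7 macrophage-like cells thinned to 1000 UMIs. Each square gives the cells with both genes and, in brackets, the number independence gives, coloured by the log2 of their ratio (grey where under 3 cells were expected). The pairs among Acp5, Ctsk and Atp6v0d2 stood at ratios of 2.31 to 3.27, and pairs of Acp5 with Spp1, Apoe, Trem2 and Gpnmb between 0.941 and 0.968. Cells of the smaller cluster are included.

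Day 7 cells were also compared by whether they held a given gene, as a description. The 66 cells with Acp5 had Nfatc1 at 561 CPM and the 233 without it at 51.5 CPM, at thinned depth, while Gpnmb was at 470 and 468 CPM. The 66 cells with Trem2 had Apoe at 8894 CPM against 2803 in those without, Gpnmb at 970 against 326 CPM and Fabp5, a fatty-acid carrier, at 3879 against 1584 CPM. The 77 cells with Gpnmb had Apoe at 6844 against 3212 CPM, Fabp5 at 3974 against 1437 CPM and Nfatc1 at 39.0 against 207 CPM. Cells with Trem2 or Gpnmb thus held more Apoe and Fabp5, and those with Acp5 more Nfatc1. Most cells of the 33-cell cluster held Acp5 and few held Gpnmb, and Nfatc1 there was at 1066 CPM against 48.6 in the other 289. The splits were not made outside that cluster, so its part in these values was not tested. Raw median depths were 11457 and 5705 UMIs for cells with and without Acp5, 8040 and 5734 for Trem2, and 6143 and 6134 for Gpnmb.

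The other genes of these pathways were taken from lists. Over all measured genes, 14.5% were higher and 20.8% lower on day 2 than in non-lesional skin, and 15.9 and 12.4% on day 7. Between day 2 and day 7, 10% were higher and 3.40% lower. These shares stand beside every list count below, and counts near them are not read as a change of the list. Of 12 measured osteoclast genes, 6 were higher on day 7 than on day 2 and none was lower, with a median log2 difference of 1.02 beside 0.20 over all genes. These were Nfatc1 (2.93), Mmp9 (2.50), Ocstamp (2.16), Itgb3 (1.64), Tnfrsf11a (1.34) and Src (1.05). Without the 33 cells of the small cluster none of the 6 was 2-fold higher than on day 2: the log2 differences were 0.51, 0.68, 0.15, 0.10, 0.83 and 0.15 in the same order. From non-lesional skin to day 2, 4 of 8 were higher (Tcirg1, Src, Clcn7 and Snx10) and 3 lower (Mmp9, Nfatc1 and Tnfrsf11a), and to day 7, 7 of 12 were higher and none lower. Of 16 measured V-ATPase subunits, 1 (6.25%, beside 10% of all genes) was higher on day 7 than on day 2 (Atp6v0a2, 1.15), while Atp6v0d2 stood at 3.75. From non-lesional skin, 3 subunits were higher and 1 lower on day 2, and 7 were higher and 1 lower on day 7, with Atp6v0a1 the lower one both times. Of 16 measured osteoclast regulators, 3 were higher and 5 lower on day 2, 6 higher and 1 lower on day 7, and 3 were higher on day 7 than on day 2 (Fos 1.54, Tyrobp 1.32 and Jdp2 1.32). Without the 33 cells Fos (1.40) and Tyrobp (1.27) still were and Jdp2 (0.24) was not, while another regulator passed 2-fold, so the count stayed at 3.

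Of 24 measured lipid-associated macrophage genes, 11 were higher and 1 lower on day 7 than on day 2. The largest differences were those of Fabp5 (3.48), Syngr1 (2.91) and Lpl (2.89, lipoprotein lipase), and Olr1 was lower (-1.34). The same 11 genes were higher without the 33 cells. Against non-lesional skin, 8 were higher and 3 lower on day 2 and 12 higher and 1 lower on day 7, with Fabp5 at 6.63. Among 15 measured SPP1 receptors and APOE or TREM2 partners, 5 were higher on day 7 than on day 2, led by the cholesterol exporter Abcg1 (1.80) and the integrin chains Itga9 (1.76) and Itgb3 (1.64), the last of which was not without the 33 cells. Against non-lesional skin, 2 of 12 (16.7%) were higher and 4 (33.3%) lower on day 2, and 4 of 15 (26.7%) higher and 2 (13.3%) lower on day 7. The SPP1-binding chain Itgav stood at 3.10 and 2.92. Of 22 lysosomal genes, 4 (18.2%) were higher on day 7 than on day 2, led by Ctsd (1.61), Hexa (1.46) and Ctsb (1.30). Without the 33 cells 7 of the 22 were higher, these 4 among them. From non-lesional skin, 1 (4.55%) was higher and 6 (27.3%) lower on day 2. On day 7, 3 (13.6%) were higher and 2 (9.09%) lower, both below the 15.9 and 12.4% of all genes.

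The remaining lists place these changes among other macrophage genes. Of 16 inflammatory monocyte genes, none was higher and 11 were lower on day 7 than on day 2, led by Cxcl3 (-2.48), Ptgs2 (-2.38) and Thbs1 (-2.06), and from non-lesional skin 11 of 15 were higher on day 2 and 10 of 16 on day 7 (3 and 4 lower). Of the alternative activation and resident genes, 12 of 14 were lower on day 2 and 11 of 14 on day 7 than in non-lesional skin, with Retnla at -11.28 and -11.59, and Arg1 was the higher one both times. From day 2 to day 7, 4 of 10 were higher, led by Sepp1 (2.67) and Gas6 (2.36), and Arg1 was lower (-1.04). Among fusion genes and tetraspanins other than Cd9 and Dcstamp, 3 of 17 (17.6%) were higher and 5 (29.4%) lower on day 2. On day 7, 3 of 18 (16.7%) were higher and 4 (22.2%) lower. Over all genes the shares were 14.5 and 20.8% on day 2 and 15.9 and 12.4% on day 7. Between the wound libraries 1 of 17, Ccl2, was lower (-1.25).

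The 9 genes differed in how far they belonged to macrophage-like cells. On day 7 that class held 91.8% of the Trem2 UMIs, 81.7% of Atp6v0d2, 66.9% of Acp5 and 53.8% of Dcstamp, but 39.5% of Apoe, 25.0% of Gpnmb, 18.9% of Spp1, 6.31% of Cd9 and 5.33% of Ctsk. In the non-lesional library it held 65.6% of the 32 Trem2 UMIs and under 7% of Acp5, Ctsk, Spp1, Gpnmb, Cd9 and Apoe. These shares move with the number of cells as well as with the level in each.

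**Figure D4:**
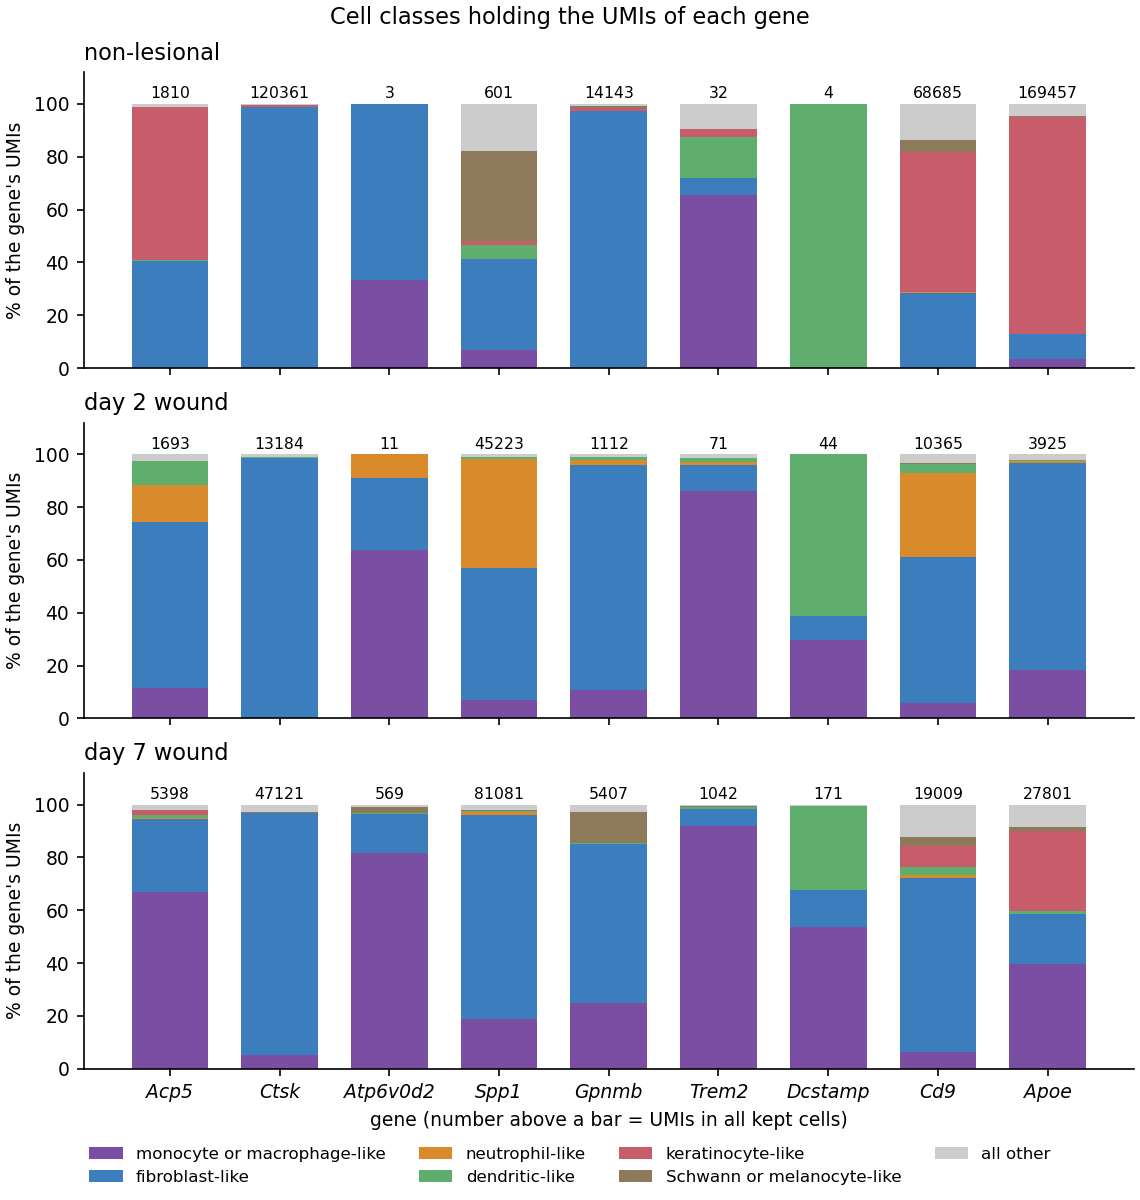
Share of each gene's UMIs (percent, vertical axis) held by each cell class in the non-lesional, day 2 and day 7 library, with the gene's UMIs in all kept cells above each bar. On day 7 macrophage-like cells held 91.8% of Trem2 and 66.9% of Acp5, and fibroblast-like cells 91.3% of Ctsk and 77.2% of Spp1.

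Fibroblast-like cells (6474, 4090 and 2363 cells) moved the other way for several of the genes, but the libraries' cells lay in different clusters: 6 clusters held nearly all non-lesional cells, 2 others 52.0 and 47.3% of the day 2 cells, and 2 more 63.8 and 22.4% of the day 7 cells. Ctsk was at 1877, 116 and 631 CPM in non-lesional, day 2 and day 7 fibroblast-like cells, 16.2-fold lower on day 2 (15.9 to 16.5) and 2.98-fold lower on day 7 (2.94 to 3.01) than in non-lesional skin. Among the 6 non-lesional clusters Ctsk ran from 197 to 2939 CPM. Gpnmb was at 218, 8.47 and 47.5 CPM, 25.7-fold lower on day 2 (24.1 to 27.5) and 4.58-fold lower on day 7 (4.41 to 4.76). Both were lowest on day 2 in this class, at the time when Gpnmb in macrophage-like cells was already above its non-lesional level. Cd9 (310, 51.2 and 183 CPM) and Apoe (259, 27.6 and 77.5 CPM) had the same dip. Spp1 was the exception, at 3.28, 203 and 917 CPM. In the cluster that held most cells shared by the non-lesional and day 7 libraries (736 and 199 cells), Ctsk was at 1330 and 2201 CPM, Gpnmb at 169 and 285, Apoe at 428 and 631 and Cd9 at 1044 and 477. Within it, then, only Cd9 of these 4 genes was lower on day 7, and the part of the clusters in the class values was not tested. The macrophage-defining genes stood in day 7 fibroblast-like cells at 0.0681 to 0.220% of their macrophage level and Spp1 at 15.9% of its own. The source of the Spp1 UMIs in this class was not tested. Of the 9 genes, 1 was higher (11.1% of all measured genes) and 4 lower (6.32%) on day 2 than in non-lesional skin, 1 higher (7.98%) and 3 lower (4.21%) on day 7, and 5 higher (2.86%) and none lower (1.62%) on day 7 than on day 2.

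Neutrophil-like cells had the highest Spp1 level on day 2, 8894 CPM, with a UMI in 60% of thinned cells, and held 41.1% of that library's Spp1 UMIs. Their Cd9 level was 1589 CPM, and Acp5 was at 115 CPM, the next level below the macrophage-like one. On day 2, macrophage-like cells had Spp1 at 42.5% of the neutrophil-like level, and 4 neutrophil-defining genes stood there at 0.588 to 3.89%. The source of these Spp1 UMIs was not tested. Dendritic-like cells had most of the day 2 Dcstamp UMIs (27 of 44) and all 4 non-lesional ones, at 5.36, 11.8 and 23.5 CPM, and their Acp5 was at 10.7, 65.0 and 30.5 CPM. Their Apoe dipped on day 2 as well (125, 6.11 and 148 CPM).

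Keratinocyte-like cells supplied most UMIs of 3 members in the non-lesional library: 82.2% of Apoe (4173 CPM), 57.7% of Acp5 (31.3 CPM) and 52.9% of Cd9 (1088 CPM). Acp5 in non-lesional skin was thus highest in keratinocyte-like cells, and the next classes, fibroblast-like (11.6 CPM) and dendritic-like (10.7 CPM), overlapped in their counting intervals. Schwann or melanocyte-like cells lay in 2 clusters, described apart. In the one led by the melanocyte genes Dct and Pmel (42.6% of the non-lesional and 51.7% of the day 7 cells of the class), Gpnmb was at 166 and 1165 CPM, from 76 and 619 UMIs. In the other (57.4 and 48.3% of them), Cd9 was at 5790 and 1030 CPM (2796 and 541 UMIs) and Spp1 at 429 and 139 CPM. Median depths were 3526 and 10964 UMIs per cell in the first and 2651 and 10633 in the second, and their part in these values was not tested. At resolution 2, the cluster led by Dct and Pmel held only 40 non-lesional and 42 day 7 cells. A separate unnamed cluster, led by Chodl and Chrdl2 and with the skeletal muscle markers Pax7 and Myf5, held 70 and 2. The 166 CPM of Gpnmb may thus include cells other than melanocytes, which was not tested. The Gpnmb values are therefore not read as a change within melanocytes.

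**Figure D5:**
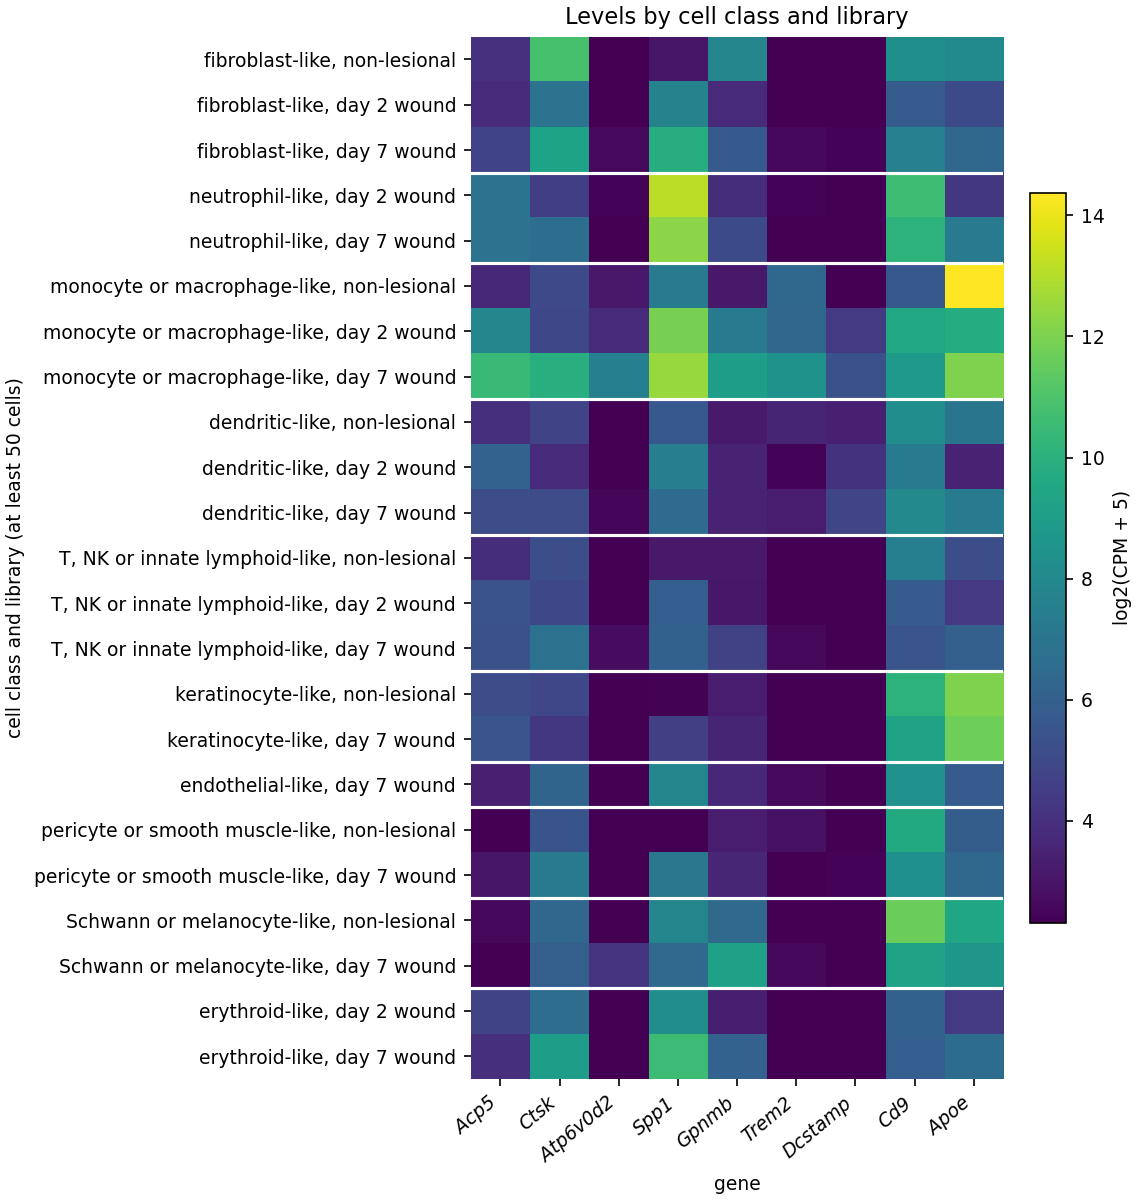
Levels of the 9 genes as colour, log2(CPM + 5), by cell class and library with at least 50 cells. Trem2 stood out in macrophage-like cells in each library, Ctsk in fibroblast-like cells and, on day 7, in macrophage-like cells.

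For each member, the 3 most alike of 7193 other genes were taken by Pearson r of log2(CPM + 5) over the 23 combinations of class and library with at least 50 cells, which share libraries and free RNA. Trem2 was closest to Ms4a7 (0.97), C3ar1 (0.96) and Msr1 (0.96), and Dcstamp to Mmp12 (0.90), Ifnb1 (0.88) and Dpep2 (0.86). Acp5 was closest to Il1rn, Frrs1 and Tnf (0.83 each), Spp1 to Slpi (0.84), Cxcl2 (0.83) and Cxcl3 (0.80), and Apoe to Serpinb8 (0.88) and Fam213b (0.86). Atp6v0d2 was closest to Slc9b2 (0.86), the exchanger that was high in the 33 cells, with F7 (0.77) and Ppbp (0.74) next. Ctsk followed the fibroblast genes Lum (0.88), Mfap4 (0.83) and Fndc1 (0.82). Gpnmb followed Mitf (0.80), the melanocyte and osteoclast transcription factor, Npy (0.80) and Syngr1 (0.72). Cd9 had no close match, with Cpeb2 (0.75), Kansl1l (0.74) and Ndfip2 (0.70).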

How the data were processed

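Droplet 3' single-cell RNA-seq libraries of non-lesional, day 2 and day 7 wound skin were analysed from the deposited matrices of raw counts (UMIs per gene and cell). The submitters' processing notes name Cell Ranger 3.0.2, Seurat 3.0 and mm10, whereas the file headers name Cell Ranger 5.0.0. Total counts were 123088680, 138046172 and 102345327 UMIs over 10857, 8707 and 7317 barcodes.

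Cells with under 200 genes or over 10% mitochondrial UMIs were removed, as were the cells with the highest Scrublet doublet scores, 0.8% per 1000 barcodes. The rest were clustered (scanpy 1.11.5, leidenalg 0.10.2, 2000 variable genes, 30 components, 20 neighbours, resolution 1) and named from marker lists: at least 3 markers at 50 CPM and a score of 0.5. UMIs were summed by class and library as CPM, with exact Poisson intervals, conditional binomial intervals for ratios and Clopper-Pearson intervals for shares (scipy 1.17.1). A call needed a 2-fold difference in log2(CPM + 5) and 10 UMIs in the pair. TMM factors came from edgeR 4.0.16. In simulated Poisson counts, 99%, 96% and 96.5% of 200 changed genes were recovered (day 2 and day 7 against non-lesional, day 7 against day 2, with 7216, 9741 and 9559 genes). Of unchanged genes, 5.89%, 6.65% and 1.77% were called. The planted changes were all larger than the 2-fold call and lay only in better-counted genes. The simulation therefore does not show how calls behave for genes with few UMIs, or with UMIs held by few cells.

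The members, lists and tests were chosen with earlier results of these data known. Members were named throughout. One gene of the most-alike list of Apoe is not reported here. From the other lists, the 3 largest differences in each direction could be named, and any osteoclast or V-ATPase gene. The lists covered osteoclast genes, osteoclast regulators, lipid-associated macrophage genes, lysosomal genes, V-ATPase subunits, fusion genes and tetraspanins, alternative activation and resident genes, inflammatory monocyte genes, and SPP1 receptors with APOE or TREM2 partners. Alternatives varied the pseudocount, scaling, filters, doublet removal, thinning, clustering and class assignment.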

Additional observations from a re-analysis of the deposited data

Results flagged for a closer look

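Between libraries, 3 of the genes moved in opposite directions in macrophage-like and fibroblast-like cells. Gpnmb was higher on day 2 than in non-lesional skin by 4.10 on the log2 scale in macrophage-like cells and lower in fibroblast-like cells (-4.05), and on day 7 the values were 5.89 and -2.08. Cd9 on day 2 stood at 3.87 in macrophage-like cells and -2.49 in fibroblast-like cells. Ctsk on day 7 stood at 4.94 in macrophage-like cells and -1.57 in fibroblast-like cells. The fibroblast-like libraries lay in different clusters, and in the cluster most shared by the non-lesional and day 7 libraries Ctsk (1330 and 2201 CPM) and Gpnmb (169 and 285 CPM) were higher on day 7. The difference between the classes was not tested, since each group had 1 library.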

How the results depend on the processing

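Of 250 recomputed counts under the alternatives, 241 stayed within 1.5 times the reported count and 9 did not. Of 1222 other recomputed values (single genes, shares and pairs), 973 stayed within the counting interval of the reported value (medians of all genes within 0.1), 247 moved outside it, and 2 lost their direction (Acp5 and Dcstamp with the class per cell, below). On day 7 against day 2, Acp5 (2.52 on the log2 scale) stood at 0.67 at clustering resolution 2 and turned to -0.14 with the class set per cell, Spp1 passed 2-fold with the class per cell (1.26), and Dcstamp passed it with a pseudocount of 1 CPM (1.10) and with the class per cell (1.40). With the class per cell, Dcstamp on day 2 against non-lesional skin fell to 0, co-detected pairs at 1.5 times the independent number fell from 1 to 0 on day 2 and from 4 to 1 on day 7, and 3 members in place of 1 were higher in day 7 than in non-lesional fibroblast-like cells. At resolution 2 the day 7 pairs numbered 2. With a pseudocount of 1 CPM, 2 members were higher in day 7 fibroblast-like cells, and with thinning to 1000 UMIs 1 in place of 3 was lower there and 8 in place of 14 other-list genes were lower in day 7 than in day 2 macrophage-like cells. Without doublet removal, 2 members in place of 1 were lower on day 2 than in non-lesional skin, the second being Ctsk (-1.31). Unthinned, 3 members in place of 1 were in at least 10% of non-lesional macrophage-like cells. TMM scaling moved the median of all genes from -0.18 to 0.15 on day 2 and from 0.06 to 0.22 on day 7 against non-lesional skin, and turned Ctsk and Trem2 on day 2 from -0.03 and -0.08 to 0.29 and 0.28. The cause of these changes was not tested. No paired analysis was possible because each group had 1 library, and for the same reason no replicate could be left out. The 56 non-lesional macrophage-like cells and single-digit UMI counts of Acp5, Ctsk, Atp6v0d2, Gpnmb and Dcstamp there limit every ratio to that library. Further alternatives were added after seeing the data: the 45-cell non-lesional cluster alone, and leaving out the tenth of cells with most UMIs, with which Acp5 stood at 2.07 and Ctsk at 3.94 on day 7 against day 2.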
